A study of Schmidtea polychroa with 132 samples.

Results

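In embryos and yolk of the freshwater planarian Schmidtea polychroa, 150 of 15124 transcript models were singled out because their share of the RNA changed least. After 3 transcripts that move with the spike-ins were set aside, 15121 remained, and each library was scaled to the same total over these, with levels in CPM (counts per 1000000). A transcript was eligible when its median reached at least 50 CPM in each of stages 2 to 8 and in yolk, which 540 transcripts did. The eligible transcripts were ranked by the standard deviation (SD) of the 8 group medians on the log2 scale, and the 150 with the lowest SD are called the constant transcripts here. The other 390 eligible transcripts, expressed in the same 8 groups, serve for comparison. The levels of the constant transcripts in stages 2 to 8 and yolk chose them, so these levels are given as a description. Stage 1 had no part in the choice, nor did the counts of spike-ins. The spread between embryos was not ranked, but a larger spread makes group medians less steady, so it is not independent of the choice.

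The series followed development in single embryos taken from egg capsules kept at 20 °C over 15 days. No strain or treatment was given, and every embryo was a whole animal, so its RNA came from all its cells together. RNA was read by CEL-Seq, which barcodes polyadenylated RNA and reads it near its 3′ end, in libraries that were also treated with a duplex-specific nuclease. The 127 embryos fell in stage 1 (n = 6), stage 2 (n = 29), stage 3 (n = 22), stage 4 (n = 10), stage 5 (n = 13), stage 6 (n = 16), stage 7 (n = 16) and stage 8 (n = 15), and 4 libraries were labelled yolk and 1 protist. The labels do not say which capsule an embryo came from, so p-values measure the spread between these libraries alone.

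Planarian eggs carry almost no yolk of their own. Each capsule encloses a few embryos among many separate yolk cells, which the young embryo swallows through a temporary pharynx before the organs of the hatchling form. In animals generally, transcripts that keep a steady share through such a change often serve tasks common to all cells, such as protein synthesis, energy supply and the cytoskeleton. The deposited files pair no transcript number with a gene name, so whether the constant transcripts hold such genes could not be examined, and they are given by number.

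Library depth was lower in stages 1 to 3 than later and bears on every value below. Transcript counts per library ranged from 16740 to 1623149, and at the median depth of a group 50 CPM stood for 2.80 counts at stage 1, 5.99 at stage 2 and 9.07 at stage 3, but for 25.6 to 38.7 counts in stages 4 to 8 and 15.8 in yolk. The proportions among 26 synthetic spike-in RNAs (ERCC spike-ins, added to each library in an amount not given in the sources used here) placed the libraries in 4 sets, which the labels do not mention. Stages 1, 2 and 3 and yolk gave 3, 12, 12 and 3 libraries to set B and 3, 17, 10 and 1 to set A, which also took the protist library. Set C held all of stages 4 to 6 and set D all of stages 7 and 8, so that the steps between stages 3 and 4 and between stages 6 and 7 cannot be told apart from a change of set.

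The constant transcripts covered a wide range of levels, from rare to abundant. Their level, the geometric mean of the 8 group medians, ran from 66.1 to 6534 CPM with a median of 174 CPM, against a median of 294 CPM for the other 390. Between 50 and 100 CPM there were 26 of them, between 100 and 200 CPM 54, between 200 and 500 CPM 34, between 500 and 1000 CPM 14, and at 1000 CPM or above 22. The other 390 numbered 9, 108, 153, 67 and 53 in the same bands. The SD of the log2 group medians ran from 0.12 to 0.56 (median 0.45) among the constant transcripts and from 0.57 to 3.24 (median 0.97) among the others, a gap that the ranking fixes. As a fold between the highest and the lowest group median this was 1.27 to 3.54, with a median of 2.38, against a median of 6.37 for the others. Only 38 of the 150 stayed within 2-fold over all 8 groups, so "constant" describes a rank among 540 and not the absence of change. Within the 150, a list already cut on SD, mean log2 level and SD of the log2 medians had a Spearman correlation of 0.077. This describes transcripts that share the same libraries and does not carry over to the 540. Low levels were commoner among the 150 than among the others, and a low transcript can fall little before it misses the minimum of 50 CPM.

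**Figure D1:**
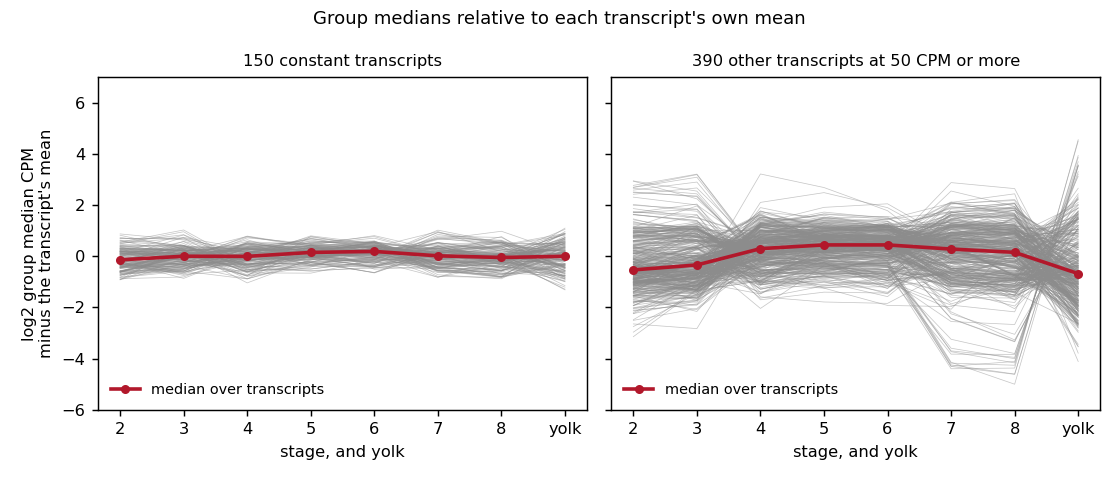
Log2 median CPM of each group minus the transcript's own mean over the 8 groups, for the 150 constant transcripts (left) and the 390 other transcripts at 50 CPM or more in all 8 groups (right). Each grey line is 1 transcript and the red line is the median over transcripts, which stays between -0.14 and 0.19 on the left and runs from -0.68 in yolk to 0.44 in stages 5 and 6 on the right.

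A small drift was common to the constant transcripts. Relative to each transcript's own mean, the median over the 150 was -0.14 on the log2 scale at stage 2, 0.15 at stage 5 and 0.19 at stage 6, and within 0.05 of 0 in the other 5 groups. The other 390 lay at -0.53 at stage 2, at 0.44 in stages 5 and 6, and at -0.68 in yolk. Yolk was the group in which the constant transcripts strayed most. It was the lowest of the 8 groups for 37 of them and the highest for 36, and only 87 of the 150 lay within 0.5 log2 of their own mean there, against 109 to 132 in each of stages 2 to 8. Yolk rested on 4 libraries, of which 3 belonged to set B with transcript totals of 288089 to 524665 and 1 to set A with 77411, and what part this had in the yolk values was not tested.

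The most constant transcript of all was FW_v1_tr_05749, with a geometric mean of 84.1 CPM. Its median was 88.4 CPM at stage 2 (lowest 0, highest 1018), 84.6 CPM at stage 3 (0 to 269.6), 75.3 CPM at stage 4 (21.3 to 161) and 86.9 CPM at stage 5 (18.4 to 182). It was 88.3 CPM in stage 6 (28.8 to 211), 94.0 CPM in stage 7 (64.6 to 166) and 83.6 CPM in stage 8 (51.0 to 185), and the 4 yolk libraries had 39.1, 52.1, 148.5 and 95.3 CPM. The medians thus spanned 1.27-fold, an SD of 0.12 on the log2 scale, whereas single embryos overlapped across all stages and differed many-fold within the early ones. In 6 of the 29 stage 2 libraries and 2 of the 22 stage 3 libraries it had no count at all, and in yolk replicate 1 its 39.1 CPM stood for 3 counts.

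FW_v1_tr_08441, second in rank with an SD of 0.16, was more abundant, at 156 CPM against 84.1 CPM, and steadier between embryos of stages 2 and 3. Its median was 143 CPM in stage 2 (lowest 21.4, highest 413), 155 CPM in stage 3 (59.8 to 356), 139 CPM in stage 4 (23.7 to 215) and 153 CPM in stage 5 (95.1 to 266). In stage 6 the median was 185 CPM (104 to 254), in stage 7 169 CPM (88.3 to 199) and in stage 8 137 CPM (30.6 to 259), and the yolk libraries held 143, 167, 207 and 177 CPM. It was found in every library of these 8 groups. The spread of the yolk libraries, a coefficient of variation (CV) of 15.2%, was no larger than the 16.8% that counting alone gives.

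The most abundant constant transcripts were FW_v1_tr_00413, with a geometric mean of 6534 CPM, and FW_v1_tr_13310, with 5280 CPM. FW_v1_tr_00413 had a median of 7880 CPM in stage 2 (lowest 2798, highest 31938), 6803 CPM in stage 3 (2039 to 14585), 4525 CPM in stage 4 (3152 to 7133) and 5490 CPM in stage 5 (3903 to 16046). Its lowest median was 4201 CPM in stage 6 (2709 to 6578), followed by 7349 CPM in stage 7 (5538 to 11062) and 8610 CPM in stage 8 (7333 to 13332), and the yolk libraries held 20697, 8354, 10419 and 6330 CPM. It dipped in stages 4 to 6, the stages of set C, and every embryo of stages 4 and 6 lay under the lowest stage 8 embryo.
FW_v1_tr_13310 was instead lowest in the early stages, with a median of 3491 CPM in stage 2 (lowest 1381, highest 11779) and 4243 CPM in stage 3 (2235 to 6276). Its median was 5643 CPM in stage 4 (2231 to 7476), 6338 CPM in stage 5 (4479 to 7953), 5977 CPM in stage 6 (3578 to 7918), 5394 CPM in stage 7 (3966 to 6390) and 5128 CPM in stage 8 (4226 to 6641). Its yolk libraries held 7329, 8948, 5381 and 6465 CPM. Counting error was under 3% for both in stages 4 to 8, and their CV between embryos there ran from 11.5% to 51.3% beyond it.

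**Figure D2:**
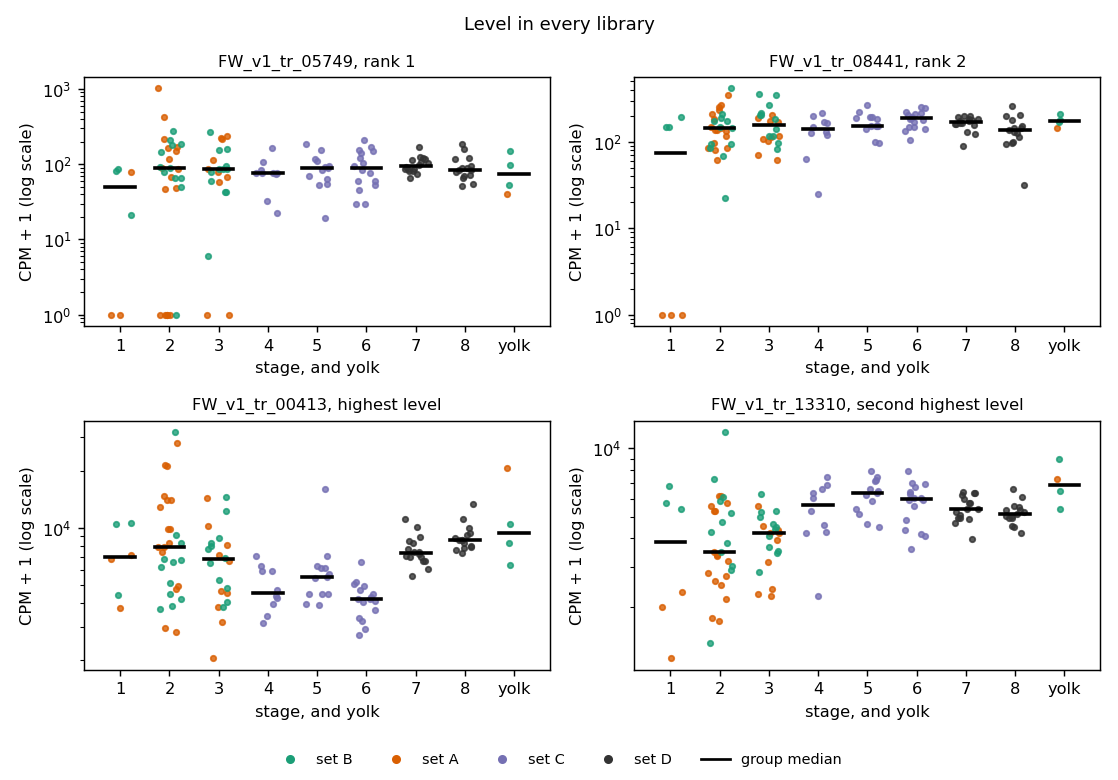
CPM + 1 on a log scale in every embryo and yolk library for the 2 transcripts with the most constant medians (top) and the 2 most abundant constant transcripts (bottom). Points are libraries coloured by library set and black bars are group medians. The medians of FW_v1_tr_05749 stay between 73.7 and 94.0 CPM over stages 2 to 8 and yolk while single libraries of stages 2 and 3 reach down to 0, and FW_v1_tr_13310 runs from 3491 CPM in stage 2 to 6897 CPM in yolk.

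At the low end stood FW_v1_tr_14389, with a geometric mean of 66.1 CPM, and FW_v1_tr_13213, with 71.5 CPM. FW_v1_tr_14389 had its lowest median in stage 6, 51.4 CPM (lowest 0, highest 156), and its highest in yolk, where the libraries held 78.1, 198, 87.4 and 97.2 CPM. FW_v1_tr_13213 had its lowest median in stage 2, 51.1 CPM (0 to 149.6), and its highest in stage 5, 81.7 CPM (27.7 to 184). Such transcripts were chosen on few counts in the early stages, and 7 of the 29 stage 2 libraries had no count of FW_v1_tr_13213.

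Where the 2 thresholds fell was a matter of small differences. FW_v1_tr_04720 closed the list at rank 150 with an SD of 0.5625, with medians of 84.8 CPM in stage 2 to 268 CPM in stage 4, and FW_v1_tr_01555, next in rank, missed it with 0.5678, with medians of 680.2 CPM in stage 2 to 2043 CPM in stage 8. FW_v1_tr_04671 passed the level with 50.1 CPM in stage 2, and FW_v1_tr_05726 missed it with 49.2 CPM in stage 8 although its SD of 0.50 would have ranked it among the 150. The SD was 0.25 at rank 10, 0.36 at rank 50 and 0.49 at rank 100, with no step at the end of the list. Rebuilding the list with DESeq2 size factors in place of library totals kept only 77 of the 150, and a minimum of 25 CPM kept 92 and of 100 CPM 79.

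Together the 150 took up 8.03% to 10.5% of all transcript counts on average in stages 2 to 8 and yolk. The ranking itself favours an even share over these groups, so nothing is read from it. The mean share (± SD over libraries) was 6.66% ± 1.48 at stage 1, 10.5% ± 1.59 at stage 2, 10.1% ± 1.55 at stage 3, 8.90% ± 1.83 at stage 4 and 9.77% ± 0.718 at stage 5. Stage 6 embryos gave them 9.96% ± 0.879, stage 7 embryos 8.43% ± 0.425, stage 8 embryos 8.06% ± 0.356 and the yolk libraries 8.03% ± 2.13, with the library numbers given above. The other 390 held 37.9% at stage 2, 30.2% at stage 5, 23.4% at stage 8 and 45.3% in the yolk libraries. The 10 most abundant of the 150 made up 42.3% to 45.5% of their counts in the median library of each group. The yolk libraries of set B gave 8.19%, 6.64% and 6.31% and the one of set A 11.0%, without which the yolk share was 7.05% ± 1.00.

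Stage 4 held 2 libraries that stood apart, in which the share of the constant transcripts was low. Replicate 3 had 4.31% and replicate 10 had 7.48%, while the other 8 had 9.17% to 11.0%. These 2 libraries took 55.9% and 31.5% of their counts from 115 transcripts that stood at 50 CPM or more in the protist library and at least 10-fold above every group median, whereas the other 8 took at most 2.95% from them. With those 115 transcripts left out of the totals, the share was 9.78% in replicate 3 and 10.9% in replicate 10, and without the 2 libraries it was 9.65% ± 0.598 (n = 8). The list itself hardly depended on them, since 147 of the 150 stayed when the list was rebuilt without the 2 libraries.

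The constant transcripts took a small share of the counts in the protist library. It gave 211 counts of 173054 to the 150, 0.122% (95% Wilson interval 0.107% to 0.140%, which covers counting error only), against 6.66% to 10.5% on average in the embryo stages. Of the 150, 53 had at least 1 count there and 97 had none (64.7%), against 178 of the other 390 (45.6%) with none. The other 390 took 1.15% of that library's counts and the 115 protist-high transcripts 97.4%. With those 115 left out of the total, the share of the 150 was 4.76%. The small share thus does not show that they were absent there.

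From stage 4 to stage 8 the constant transcripts varied between embryos of 1 stage about as much as the others. The 2 lists were not matched for level, with a median of 174 CPM for the 150 and 294 CPM for the others. The spread was measured as the CV of CPM between libraries after the part that counting alone gives was taken off. Its median over the 150 was 79.0% at stage 1, 73.6% at stage 2, 62.5% at stage 3, 45.3% at stage 4 and 32.7% at stage 5. It came to 42.8% at stage 6, 25.0% at stage 7, 29.0% at stage 8 and 33.4% among the yolk libraries. For the other 390 the medians were 71.2%, 82.7%, 75.8%, 46.1% and 34.6% in stages 1 to 5. They were 43.9%, 26.1%, 28.1% and 39.3% in stages 6, 7 and 8 and yolk. The constant transcripts had the higher value in stage 1 and the lower one in stages 2 and 3 and yolk. From stage 4 to stage 8 they lay within 2 percentage points of the others. Transcripts of smaller spread have steadier medians, so the choice itself can favour a lower spread, and nothing is read from these gaps. At stage 2 the median CV beyond counting of the 150, turned into an SD on the log2 scale, was 0.95 log2. The median SD of the 8 group medians, from which no counting error was taken off, was 0.45 log2.

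**Figure D3:**
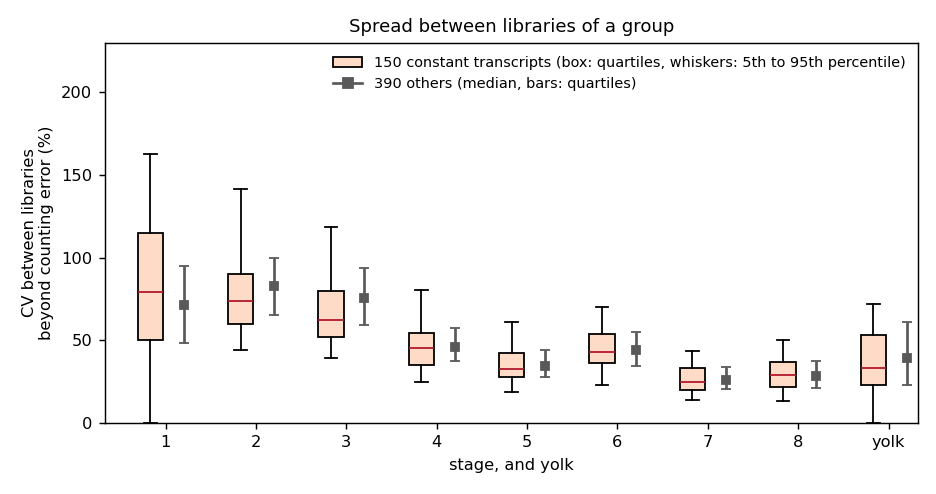
CV between libraries beyond counting error, in percent, for each stage and yolk. Boxes show the quartiles and whiskers the 5th to 95th percentile over the 150 constant transcripts, and grey squares with bars the median and quartiles over the other 390; the median of the 150 is 73.6% at stage 2, 25.0% at stage 7 and 29.0% at stage 8.

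The CV beyond counting was turned into an SD on the log2 scale in the same way for each transcript and stage. It exceeded the SD of the transcript's own group medians for 147 of the 150 both at stage 2 and at stage 3. The same was true of 124 at stage 4, 97 at stage 5 and 121 at stage 6. This held for 63 at stage 7 and for 69 at stage 8. Among the other 390 it held for 217 at stage 2, 182 at stage 3 and 1 at stage 7. The ranking fixed the low spread of the medians, so the gap between the lists is a description and nothing is read from it. Among stages 2 to 8 the smallest spread lay in stage 7 for 75 of the 150 and in stage 8 for 45. The other 390 were not counted in this way, but their median CV beyond counting was also lowest in these stages, at 26.1% and 28.1%. In stages 2 and 3 the spread moved with the library set, at 55.6% in set B and 77.4% in set A in stage 2, and 46.7% in set B and 70.0% in set A in stage 3. In stage 4 it was 33.7% without the 2 libraries rich in protist-high transcripts. In libraries with at least 25% of the median transcript total, the spread was 53.8% at stage 1, against 79.0% in all libraries. It was 52.9% there at stage 2 and at stage 3, against 73.6% and 62.5%. What part depth itself had in the larger early spread was not tested.

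The steadiest of the 150 between embryos of stage 7 were FW_v1_tr_09456 and FW_v1_tr_14121. FW_v1_tr_09456 lay at 517 to 738 CPM in stage 7 (median 644), a CV beyond counting of 8.91%. The 16 embryos of that stage thus fell within a narrow band, while stage 2 embryos ran from 132 to 3779 CPM (median 418), a CV of 104%. FW_v1_tr_14121 lay at 705 to 1087 CPM in stage 7 (median 882), a CV beyond counting of 10.2%, and at 239 to 2026 CPM in stage 2 (median 867). In stage 8 both were broader, with 26.8% for FW_v1_tr_09456, whose lowest embryo had 122 CPM beside a median of 601 CPM, and 25.1% for FW_v1_tr_14121.

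The most variable in stage 7 were FW_v1_tr_11610, with a CV beyond counting of 52.0%, and FW_v1_tr_10255, with 50.8%. FW_v1_tr_11610 lay at 37.2 to 189 CPM in stage 7 (median 55.1) and at 32.0 to 140.2 CPM in stage 8 (median 61.2). FW_v1_tr_10255 lay at 12.3 to 116 CPM in stage 7 (median 63.7), and its yolk libraries fell apart, with 13.0 and 20.8 CPM in replicates 1 and 2 and 428 and 315 CPM in replicates 3 and 4. Its yolk median of 168 CPM, the highest of its 8 groups, was thus a value that no yolk library had. Counting gave 16.5% for FW_v1_tr_11610 and 15.4% for FW_v1_tr_10255 in stage 7, well under the spread seen.

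A transcript that varied between embryos in stage 7 tended to do so in stage 8. Over the 150, the Spearman correlation of the CV beyond counting was 0.53 between stages 7 and 8 and 0.43 between stages 5 and 6, and over the other 390 it was 0.58 between stages 7 and 8. The stage 7 CV went with level, at -0.51 with mean log2 level, so that rarer transcripts had the larger CV. It did not go with the SD of the group medians (-0.0040). Only counting error was taken off, so any other technical noise between libraries stays in this CV. These correlations describe 150 transcripts read in the same libraries. As shares of the RNA, pairs of the 150 were hardly correlated from embryo to embryo, a median that scaling every library to the same total itself draws towards 0. Over their 11175 pairs the median Spearman correlation was 0.0088 across the 16 embryos of stage 7 and 0.011 across the 15 of stage 8, and 4.31% and 4.11% of pairs exceeded 0.5, against 4.83% and 4.92% among the other 390.

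The ranking did not use stage 1. Since it chose the 150 for like medians in the 8 groups, their stage 1 values are set beside those of the other 390. Of the 150, 86 (57.3%) had a stage 1 median within 2-fold of their own mean over the 8 groups, 59 lay lower, 5 lay higher, and 3 of those lower had a median of 0. Among the other 390, 164 (42.1%) lay within 2-fold, 190 lower and 36 higher. The median departure was -0.81 log2 for the 147 constant transcripts with a median above 0, and -0.92 log2 for 388 of the others. FW_v1_tr_05749 had a stage 1 median of 48.7 CPM (lowest 0, highest 84.9). FW_v1_tr_08441 had no count in the 3 set A libraries and 192, 146 and 146 CPM in the 3 set B libraries, close to its level of 156 CPM over the 8 groups, so that its stage 1 median of 72.8 CPM was a value that no library had. The set A libraries of stage 1 held 8530 to 12942 counts after the 3 spike-following transcripts and found 82 to 107 of the 150, whereas those of set B held 98916 to 471103 counts and found 137 to 150. Within set B the share of the 150 was 10.6% ± 2.1 in stage 2 (n = 12) and 7.56% ± 1.32 in stage 1 (SD, n = 3), a difference that was not tested. The ranking thus speaks for stages 2 to 8 and yolk, and not for stage 1.

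By edgeR's quasi-likelihood test with Benjamini-Hochberg adjustment over all transcripts, 0 of the 150 differed between stage 2 and stage 1 at an adjusted p under 0.05, and 0% of the 2874 transcripts tested did. At an unadjusted p under 0.05 there were 22 of the 150 and 454 of the 2874, and DESeq2 called 8 of the 150, beside 2.78% of all. The median log2 fold change of stage 2 over stage 1 was 0.34 among the 150 (quartiles -0.27 and 0.80), with 97 of 150 above 0, and 0.40 among all tested. With RLE size factors edgeR called 1 of the 150 and 1.11% of all, and with a minimum of 10 counts in 50% of a group's libraries 2 of 125 and 1.63% of all. The test compared 29 stage 2 libraries with 5 of stage 1, since replicate 1 of stage 1 was left out for its total of 16740.

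Within stages 2 and 3 the levels were also compared between library sets. The ranking used these same libraries, and groups that hold the sets in unequal parts, so it bears on this contrast too, and nothing is read from the share of the 150 that was called. With stage in the model, edgeR called 23 of the 150 (15.3%) different between set B and set A, 16 higher and 7 lower in set B, against 29.6% of the 1723 transcripts tested (15.9% higher and 13.7% lower). The median log2 difference was 0.04 among the 150 and 0.05 among all tested. The direction of the calls depended on the scaling. With RLE size factors, which shifted the median of all tested to -0.17 and that of the 150 to -0.18, 8 were higher and 16 lower (10.2% and 19.3% of all), and with DESeq2, which called 34.4% of all (16.4% higher and 18% lower), 14 were higher and 13 lower. Library totals alone gave 12 higher and 7 lower, beside 27.5% of all called. With no filter on low counts 21 were higher and 1 lower, 14.7% of the 150 beside 15.1% of all, so the gap to all transcripts was absent under that setting. Stage 2 alone gave 9 calls of 139 (10.6% of all) and stage 3 alone 4 of 150 (6.97% of all).

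The 2 largest called differences in each direction kept their sign under the 8 alternatives run. FW_v1_tr_04536 lay at 128 to 841 CPM in the 24 set B libraries (median 586) and at 0 to 380.0 CPM in the 27 set A libraries (median 187), or 1.69 ± 0.24 on the log2 scale (set B minus set A ± SE; adjusted p from edgeR = 1.34e-07). FW_v1_tr_14877 lay at 278 to 1045 CPM in set B (median 582) and at 59.8 to 464 CPM in set A (median 195), or 1.67 ± 0.21 on the log2 scale (set B minus set A ± SE; adjusted p from edgeR = 4.57e-09). Of the set B libraries, 23 of 24 for FW_v1_tr_04536 and all 24 for FW_v1_tr_14877 lay above the set A median, although the ranges overlapped.
FW_v1_tr_01992, one of the most abundant of the 150, lay at 1048 to 6969 CPM in set B (median 1732) and at 2007 to 27313 CPM in set A (median 7712), or -1.65 ± 0.24 on the log2 scale (set B minus set A ± SE; adjusted p from edgeR = 2.13e-07). All 24 set B libraries lay under the set A median. FW_v1_tr_14753 lay at 0 to 275 CPM in set B (median 79.7) and at 0 to 1250 CPM in set A (median 143), or -1.30 ± 0.39 on the log2 scale (set B minus set A ± SE; adjusted p from edgeR = 0.00921), and 20 of 24 set B libraries lay under the set A median. This last call was lost without the filter on low counts, at a log2 difference of -0.78, in libraries with at least 25% of the median total, at -0.66, and in stage 3 alone, at -0.91.

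**Figure D4:**
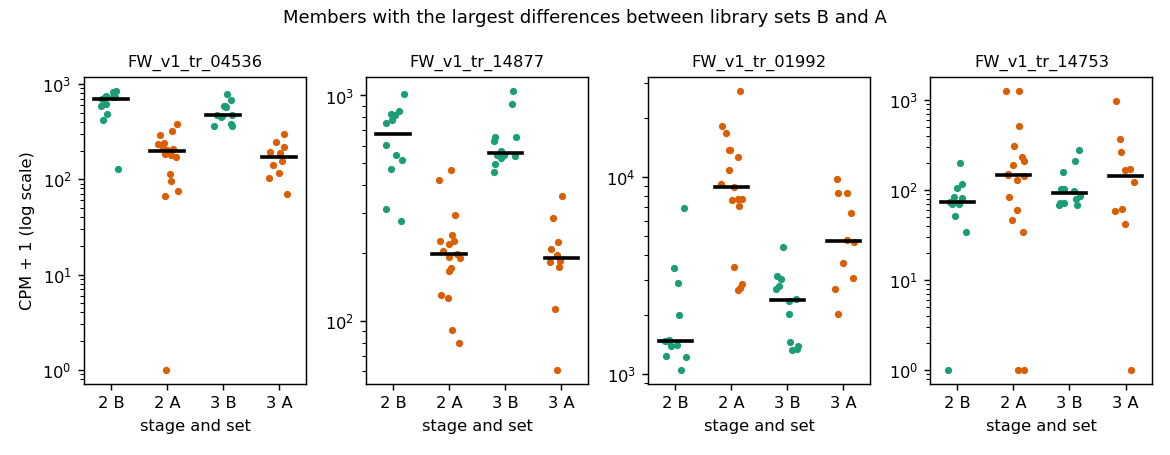
CPM + 1 on a log scale in single libraries of stage 2 and stage 3, set B left of set A within each stage, for the 2 constant transcripts with the largest called increase in set B (left 2 panels) and the 2 with the largest called decrease (right 2 panels). Bars are medians; FW_v1_tr_14877 has medians of 676 CPM in set B and 197 CPM in set A in stage 2, and 554 and 190 CPM in stage 3.

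A constant share of the RNA is no constant amount of RNA, and the spike-ins gave a second scale. Per spike-in count the constant transcripts were not constant. The 150 together gave 1.13 counts per ERCC count in set B and 0.0183 in set A in the median library of stage 2, and 1.03 in set B and 0.0329 in set A in stage 3. In the median library they gave 0.848 counts per ERCC count at stage 4, 1.06 at stage 5 and 0.882 at stage 6, all of set C, and 2.52 at stage 7 and 4.47 at stage 8, both of set D. In yolk the set B libraries gave 3.41 to 4.89 and the set A library 0.644. Between sets the ratio moved with the ERCC counts themselves, with a median of 21664 ERCC counts in set B and 193651 in set A in stage 2, so values from different sets are given side by side with no comparison.

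Within set D most constant transcripts rose per spike-in count, with more in stage 8 than in stage 7. With the ERCC total as library size, edgeR called 135 of the 150 higher in stage 8 than in stage 7 and 0 lower, against 66.1% of the 8892 transcripts tested higher and 0.045% lower. At an unadjusted p under 0.05 there were 138 of the 150 and 6368 of the 8892, DESeq2 called 139 beside 72.5% of all, and all 150 had a log2 fold change above 0. The median log2 fold change was 1.01 among the 150 (quartiles 0.84 and 1.20) and 1.01 among all tested, so relative to all transcripts the 150 moved by 0.00. That the 150 follow the whole library here is set by the ranking, which kept transcripts of like CPM in stages 7 and 8, and nothing is read from their higher share of calls. The median ERCC count was 11661 in stage 8 and 31811 in stage 7, and with TMM factors over the spike-ins 128 of the 150 were called, at a median of 0.86, beside 52.3% of all at a median of 0.87. In whole embryos, more cells and more RNA per cell cannot be told apart, nor can either be told apart from the amount of spike-in added.

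FW_v1_tr_09711 had the largest of these changes, with 8.69 to 48.4 counts per 1000 ERCC counts in stage 8 (median 27.5) and 1.60 to 15.4 in stage 7 (median 9.10), a log2 fold change of 1.77 ± 0.26 (SE, edgeR adjusted p = 1.09e-06). FW_v1_tr_14448 had 4.02 to 28.8 counts per 1000 ERCC counts in stage 8 (median 17.0) and 1.35 to 9.29 in stage 7 (median 5.45), a log2 fold change of 1.56 ± 0.26 (SE, edgeR adjusted p = 5.83e-06). Of the 15 stage 8 embryos, 13 lay above the stage 7 median for FW_v1_tr_09711 and 14 for FW_v1_tr_14448, although the ranges overlapped. Both were also higher in CPM in stage 8 than in stage 7, with medians of 458 CPM in stage 8 and 269 CPM in stage 7 for FW_v1_tr_09711, and 270.5 CPM in stage 8 and 193 CPM in stage 7 for FW_v1_tr_14448. The most constant transcript, FW_v1_tr_05749, had medians of 5.46 counts per 1000 ERCC counts in stage 8 and 2.66 in stage 7.

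**Figure D5:**
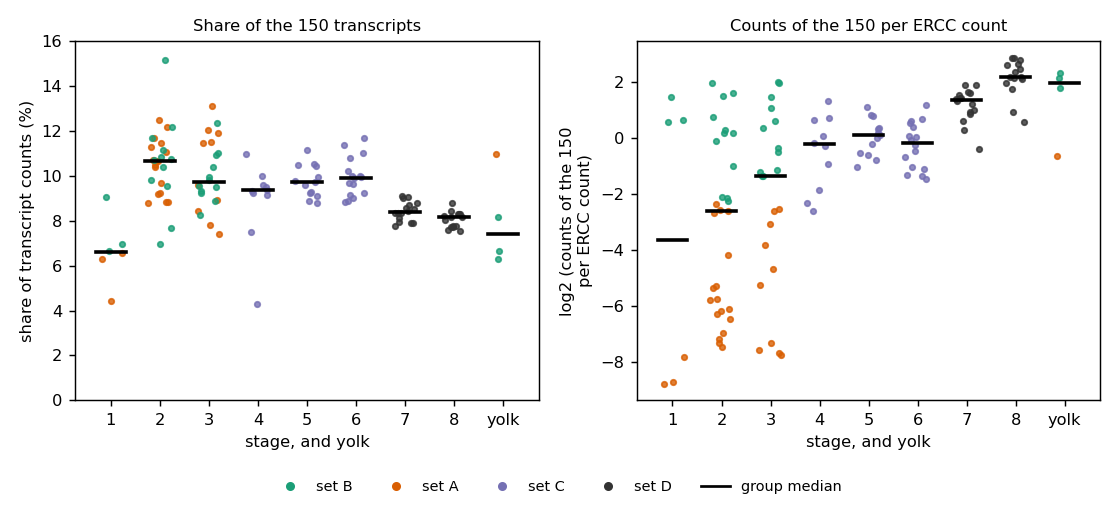
Share of transcript counts held by the 150 constant transcripts, in percent (left), and their summed counts per ERCC count on a log2 scale (right), for every embryo and yolk library, with colours for library sets and bars for group medians. The share lies between 7.53% and 8.78% in all 15 stage 8 libraries, while the counts per ERCC count run over more than 10 log2 units across all libraries and separate set B from set A within stages 1 to 3.

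In the earlier stages edgeR called no change per spike-in count among the 150. For stage 6 against stage 5, edgeR called 0 of the 150 and 0% of 6279, with 2 of the 150 at an unadjusted p under 0.05 (176 of all) and 0 by DESeq2 (0% of all), and a median log2 fold change of -0.20 among the 150 and -0.24 among all. For stage 5 against stage 4, edgeR called 0 of the 150 and 0% of 6300, with 0 of the 150 at an unadjusted p under 0.05 (99 of all) and 0 by DESeq2 (0.0476% of all). The median there was 0.27 among the 150 and 0.23 among all, but 0.02 and -0.02 without the 2 stage 4 libraries rich in protist-high transcripts.
With the library set in the model, edgeR called 0 of the 150 and 0.0552% of 1811 for stage 3 against stage 2, with 1 of the 150 at an unadjusted p under 0.05 (122 of all) and 0 by DESeq2 (1.66% of all), and a median of 0.09 among the 150 and 0.11 among all. Between stage 2 and stage 1 it called 0 of the 150 and 0.0348% of 2874, with 2 of the 150 at an unadjusted p under 0.05 (250 of all) and 1 by DESeq2 (2.23% of all), and a median of 0.29 among the 150 and 0.42 among all. These medians turned negative in libraries with at least 25% of the median total, at -0.32 from stage 3 over stage 2 and -0.39 from stage 2 over stage 1. Without the set in the model the median for stage 2 against stage 1 was -1.06, and without replicate 2 or 3 of stage 1 it was -0.07 and -0.11, so no direction is given for these steps. Without replicate 6 of stage 1 it was 1.21.

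Libraries of 1 stage differed more on the spike-in scale than as a share. Differences between embryos cannot be told apart here from differences in the amount of spike-in added. Scaling to a common total also removes what all transcripts of a library share. Here the SD was taken directly on log2 values, with counting error left in. In stage 7 the SD between embryos of the median constant transcript was 0.73 log2 per ERCC count and 0.40 log2 per transcript total, and in stage 8 it was 0.81 and 0.49. It was the larger per ERCC count for 148 of the 150 in stage 7, for 145 in stage 8 and for all 150 in stages 4, 5 and 6. The same held for all of the other 390 at stage 4, for 360 of them at stage 5, 367 at stage 6, 389 at stage 7 and 388 at stage 8.

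Some of the 150 could not be told apart by their counts. The counts of 10 pairs among them, which took in 14 of the 150, agree within sampling noise across the libraries (chi-square test of each pair's counts, p of at least 0.01). Only pairs with similar totals were tested, and agreement is easier to reach at low counts. Such pairs also occurred among the other 390, for example FW_v1_tr_13051 and FW_v1_tr_13052, with 35831 and 35835 counts. No count of them is given for the other 390, so nothing is read from the number among the 150. The largest group linked by such pairs held FW_v1_tr_04671, FW_v1_tr_12781, FW_v1_tr_13859 and FW_v1_tr_12780, with 5198, 5224, 5469 and 5009 counts over all libraries, and was named after its values were seen. FW_v1_tr_14121 and FW_v1_tr_06944 formed another, with 48657 and 48289 counts. FW_v1_tr_14654, with 6692 counts, made such a pair with FW_v1_tr_09386, one of the other 390, with 7088. Counting can split reads between near-identical models, and whether these are such models could not be read from the files, so the level of each of these 15 is uncertain. Of the 150, 6 pairs carried consecutive numbers, 2 of which are among the 10 pairs, and the other 390 held 19 pairs with consecutive numbers.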

How the data were processed

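The 150 transcripts, the library sets and the tests were chosen with earlier results of these data known. The authors deposited 1 table of raw counts, whole numbers of reads for each transcript model, each spike-in and 5 summary counters. The submitters' processing notes name CASAVA 1.8, Bowtie2 2.1.0 and HTSeq 0.5.4p3, and a genome build of Drosophila, for which reason no coordinates are printed. Strand and molecular identifiers are not given in the sources used here. Reads that did not align made up 63.6% of all reads and reads outside any feature 2.56%, and both stayed out of totals and tests. A deposited list of 60 barcodes was not used.

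CPM was computed over 15121 transcripts. The sets A to D are 4 Ward clusters of log2 proportions (count plus 1) of the 26 spike-ins that reached 5 counts in 95% of libraries. Tests used edgeR 4.0.16 in R 4.3.3, with the quasi-likelihood F test, robust dispersion, filterByExpr, TMM factors or, per spike-in count, the ERCC total as library size, and a Benjamini-Hochberg adjusted p under 0.05 over all transcripts tested as a call. Each fit held only the libraries it compares. Libraries under 5% of the median transcript total (16872 counts) were left out of tests, which removed stage 1 replicate 1. The fits were tested on simulated data. An SE is the fold change divided by the root of F. The CV beyond counting is the root of the variance of CPM minus the mean Poisson variance, over the mean. Replicate numbers are an order of accession that pairs no samples, and no library matched another within counting noise. Named were ranks 1, 2, 150 and 151, the transcripts beside the level threshold, the 2 highest and 2 lowest in level, the 2 with the smallest and 2 with the largest stage 7 CV, and at most 2 called in each direction per comparison. DESeq2 1.42.0, other scalings, filters and libraries were tried as alternatives.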

Additional observations from a re-analysis of the deposited data

Results flagged for a closer look

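Within groups of 4 to 10 libraries, the share of the 150, their counts per ERCC count and the levels of the 18 named ones were looked through for a library that stands apart. Of 60 such groups, 9 had one, by a gap limit that gives about 1 in 20 for normally distributed values. CPM values that rest on few counts need not keep that rate, and the groups share libraries. The 9 are therefore not set against chance. In stage 1, FW_v1_tr_13213 had 57.3 CPM in replicate 6 and at most 5.82 CPM in the others, FW_v1_tr_11610 had 468.9 CPM in replicate 3 and at most 107 CPM in the others, and FW_v1_tr_14877 had 367.2 CPM in replicate 6 and at most 134 CPM in the others. FW_v1_tr_01992 had 17068 CPM in stage 1 replicate 5 and at most 7503 CPM in the others, and FW_v1_tr_14753 had 927.2 CPM in replicate 2 and at most 151.4 CPM in the others. Replicates 2 and 3 of stage 1 held 20650 and 17288 transcript counts, and replicates 5 and 6 held 172074 and 471534. The 468.9 CPM of FW_v1_tr_11610 in replicate 3 stood for 4 counts.

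In stage 4, the share of the 150 was 4.311% in replicate 3 and at least 7.48% in the others. FW_v1_tr_04720 had 785.6 CPM in stage 4 replicate 5, the shallowest of the stage with 81365 transcript counts, and at most 381 CPM in the others. FW_v1_tr_09456 had 1658 CPM in stage 4 replicate 10 and at most 893 CPM in the others. In yolk, FW_v1_tr_14389 had 198 CPM in replicate 2 and at most 97.2 CPM in the others.

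The protist library, a single library that enters no test, gave 0.1219% of its counts to the 150.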

How the results depend on the processing

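No paired analysis was possible because the labels carry no replicate numbers that groups share. For stage 2 against stage 1, where edgeR called 0 of the 150, DESeq2 called 8 (2.78% of all), the filter of at least 10 counts in 50% of a group's libraries 2 of 125 (1.63% of all) and RLE size factors 1 (1.11% of all), while leaving out each stage 1 replicate gave 0 throughout. Between sets B and A the 23 calls became 9 of 139 in stage 2 alone (10.6% of all) and 4 in stage 3 alone (6.97% of all), which hold fewer libraries. Per ERCC count, stage 2 against stage 1 gave 1 call by DESeq2 (2.23% of all) and 1 in libraries with at least 25% of the median total (0.43% of all), against 0. Rebuilt lists shared 77 of the 150 with DESeq2 size factors (from 131 transcripts counted in every library), 92 with a minimum of 25 CPM and 79 with 100 CPM, and 100 to 147 under the other 13 definitions, 140 to 144 of them when leaving out each yolk replicate. The spread taken as SD of log2(CPM + 10) turned into a CV, which includes counting error, was 199% at stage 1, 121% at stage 2 and 90.5% at stage 3; the cause was not tested. The shares of counts moved by less than the spread between replicates under all 27 alternatives run. The transcripts named for a called difference kept their sign in every run. The median log2 change of the 150 changed sign in some runs. This held between sets B and A, and per ERCC count for stage 3 against stage 2 and stage 2 against stage 1.

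Over all transcripts tested, the calls for set B against set A ran from 142 in stage 2 alone to 2164 with no filter, beside 510. Those for stage 2 against stage 1 ran from 0 to 161 with no filter, and per ERCC count from 0 to 64 for that step, from 0 to 719 for stage 3 against stage 2, from 0 to 76 for stage 5 against stage 4, and from 0 to 14 for stage 6 against stage 5. Leaving out a stage 8 library outside the set of the others gave no value, since all 15 fell in set D. Depth was lowest in the early stages, with 2.80 to 9.07 counts at 50 CPM in the median library of stages 1 to 3. The alternative without the 2 protist-rich stage 4 libraries was chosen after seeing the data.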
